A study of Mus musculus with 4 samples.

Results

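Rmst, Meg3, Miat, Malat1, Neat1 and H19 are long non-coding RNAs, transcripts that act as RNA and encode no known protein. They were followed here in GFP-sorted cells of the mouse embryonic spinal cord, by every array probe set whose platform annotation gives 1 of these symbols and no other. That rule found 24 probe sets among 45037, namely 2 for Rmst, 11 for Meg3, 2 for Miat, 7 for Malat1 and 2 for Neat1. For H19 it found none, because the only probe set that carries its symbol also carries that of Mir675, so H19 has no value here. Rmst was chosen by its large measured difference between the cell populations, and its values are therefore a description without a test.

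RNA of neural tube cells at E10.5, when dorsal interneurons are being born, was measured on 4 Affymetrix arrays, 2 for each of the populations. Atoh1-GFP cells came from the Atoh1BAC-GFP line, in which a bacterial artificial chromosome places GFP in the Atoh1 lineage that forms dorsal interneuron 1 (dI1). The dNeurog1-GFP cells came from a line in which an enhancer of Neurog1 places GFP in the dorsal neural tube, in cells that form dorsal interneuron 2 (dI2). The mice of both lines had mixed B6SJLF1 and ICR background, and the labels name no deleted allele and no agent. The labels call the arrays of a population biological replicates and do not give the number of embryos behind each. Tissue between the limb levels was dissociated with trypsin and sorted on a MoFlo or a FACSAria, and the labels do not say which machine sorted which sample. The sort gave GFP-positive and GFP-negative cells, and the labels do not state outright which fraction was hybridised. The GFP-positive one is assumed.

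Some background places these RNAs. Rmst is a neural transcript that the repressor REST holds down outside neurons and that binds the progenitor factor SOX2 during neurogenesis. Meg3 and H19 are imprinted RNAs made from the maternal chromosome, next to the paternally expressed growth regulators Dlk1 and Igf2. Miat, also called Gomafu, stays in the nucleus of neurons and binds splicing factors. Malat1 collects in nuclear speckles, stores of splicing proteins, and Neat1 is the scaffold around which paraspeckles form.

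The Rmst gene is also the neighbourhood of microRNAs, whose sequences are shown because they lie in or beside the gene that differed most among these RNAs. In RefSeq on GRCm38.p6 the hairpin Mir1251 lies inside the span of Rmst, and Mir135a-2 lies 9561 bases outside it, both on the minus strand. The mature microRNAs were not measured. Their sequences from RefSeq are given 5′ to 3′ with the seed, bases 2 to 8, in capitals.
mmu-miR-1251-5p: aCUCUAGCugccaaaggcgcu
mmu-miR-1251-3p: cGCUUUGCucagccaguguag
mmu-miR-135a-5p: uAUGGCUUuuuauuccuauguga
mmu-miR-135a-2-3p: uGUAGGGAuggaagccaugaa
No seed among the 4 is shared.

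Values are MAS5 signals, in arbitrary units, after each array was scaled to a trimmed mean of 500. As deposited, the replicate 1 arrays had a trimmed mean of 250 and the replicate 2 arrays of 500, in both populations. A difference is the Atoh1-GFP value less the dNeurog1-GFP value, each as log2(signal + 32), which understates the change of dim RNAs. Probe sets with a mean signal of at least 63.5 were tested, which kept 27022 in all and 22 of the 24 considered here. Only differences with an adjusted p under 0.05 (limma, Benjamini-Hochberg over all kept probe sets) are called. Because the replicate number also marks the deposited scale, each call is given without and with that number as a block. Without the block 1 probe set passed (0.0037%), that of Atoh1, and with it 2156 passed (7.98%), 1085 higher in Atoh1-GFP cells (4.02%) and 1071 lower (3.96%).

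The populations matched their labels. Atoh1 read 21412 and 19675 in Atoh1-GFP cells against 1771 and 1861 in dNeurog1-GFP cells, while Neurog1 read 172 and 176 against 1388 and 2469. All 5 dI1 markers were higher and all 5 dI2 markers lower in the Atoh1-GFP population once the block was used. Markers of other cell types also had signal. Those of erythroid cells and, in part, heart muscle were higher in Atoh1-GFP cells. Of the mesenchyme and endothelial markers, described further below, 0 passed with the block. All 3 tested erythroid markers were higher in Atoh1-GFP cells by the blocked fit, beside 4.08% of all genes. The summed signal of the 5 on the array was 30534 and 31646 against 7736 and 22864. Of 6 heart muscle markers 3 were higher with the block, beside the same 4.08%, with sums of 1766 and 3628 against 452 and 2002. Their part in the differences below was not tested, and in such bulk samples fewer cells of a type and less RNA per cell cannot be told apart.

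**Figure D1:**
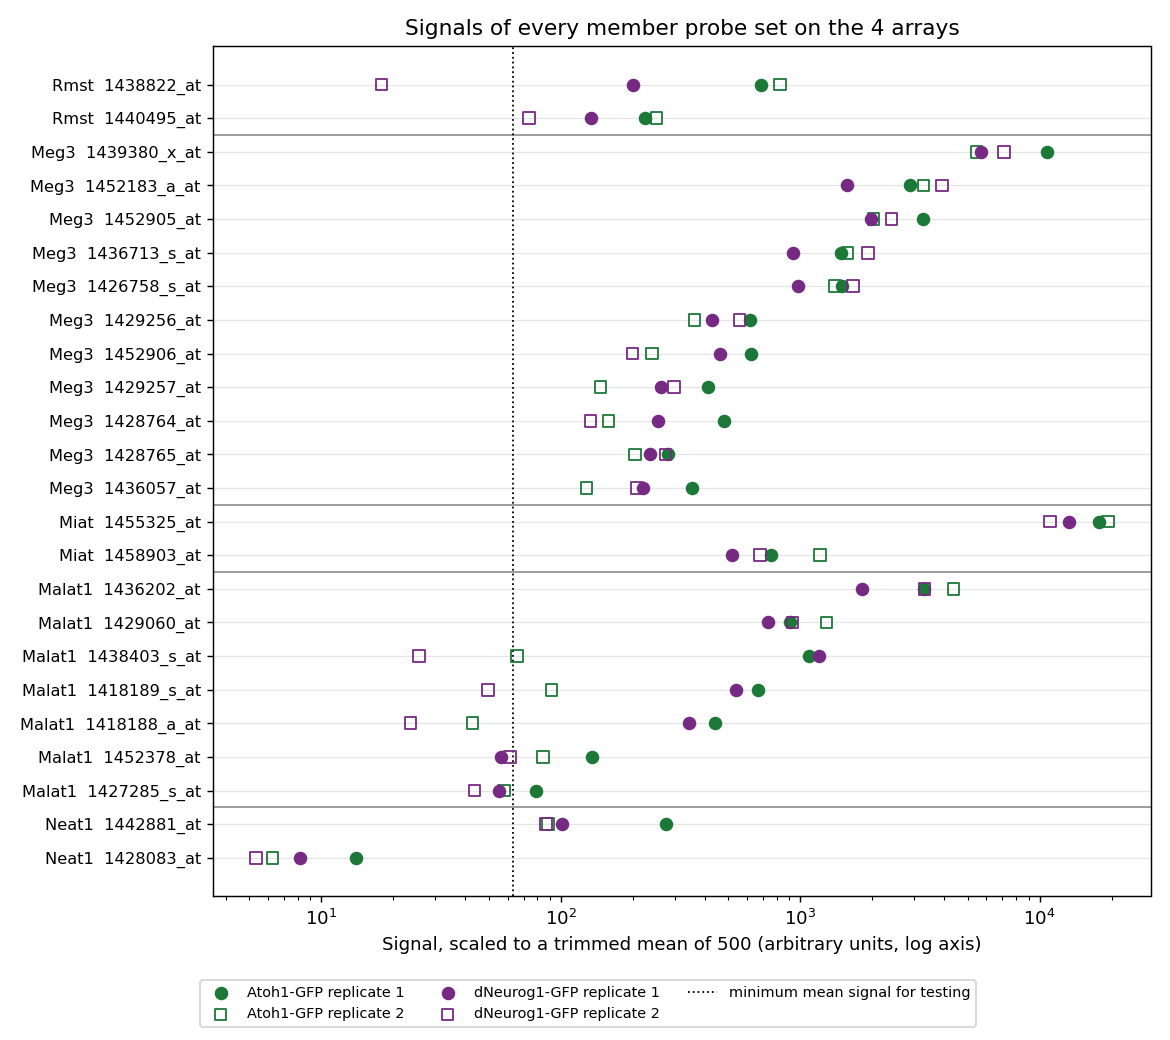
Scaled signal (log axis, arbitrary units) of every probe set of Rmst, Meg3, Miat, Malat1 and Neat1, with filled circles for replicate 1 and open squares for replicate 2, green for Atoh1-GFP and purple for dNeurog1-GFP. The dotted line marks the minimum mean signal of 63.5. For Rmst the lowest value is the 17.8 of dNeurog1-GFP replicate 2, and for 3 Malat1 probe sets both replicate 2 arrays lie far below both replicate 1 arrays.

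Rmst was higher in Atoh1-GFP than in dNeurog1-GFP cells on both of its probe sets. The brighter probe set, 1438822_at, read 688 and 826 in Atoh1-GFP cells against 201 and 17.8 in dNeurog1-GFP cells. The Atoh1-GFP arrays were thus close to each other, whereas the dNeurog1-GFP arrays lay apart, and the populations did not overlap. On the array of dNeurog1-GFP replicate 2 this signal stood at percentile 25.4 of all probe sets, against 60.8 on replicate 1 and 79.1 and 81.7 on the Atoh1-GFP arrays. The difference was 1.63 log2 units within replicate 1 and 4.11 within replicate 2, with a mean of 2.87 ± 1.75 (SD of the differences within the replicate numbers, n = 2). The 17.8 lies below the minimum mean signal of 63.5, so no ratio of plain signals is given for replicate 2, and the ratio within replicate 1 was 3.43.

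The dimmer probe set, 1440495_at, read 226 and 251 in Atoh1-GFP cells against 133 and 73.6 in dNeurog1-GFP cells. Its order of the 4 arrays was the same as on the brighter probe set. The difference was 0.64 within replicate 1 and 1.42 within replicate 2, with a mean of 1.03 ± 0.55 (SD, n = 2). The probe sets therefore gave Rmst the same direction and differed in its size. Without dNeurog1-GFP replicate 2 the difference of the brighter probe set was 1.75, and without dNeurog1-GFP replicate 1 it was 3.98.

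By the brighter probe set Rmst had the 5th highest difference of 12740 genes, each taken by its brightest tested probe set, and the highest of 417 genes that RefSeq classes as lncRNA. Because Rmst was chosen for this difference, a high rank follows from the choice and is only a description. It also rests in part on the dim value of dNeurog1-GFP replicate 2. Markers of the roof plate and floor plate, the dorsal and ventral midline of the neural tube, were compared between the same populations. Of 5 tested roof plate markers 1 passed with the block, beside 9.51% of all genes. It was Wnt3a, which was higher in Atoh1-GFP cells, while the median of the 5 was -0.03. The summed signal of 6 was 5702 and 3465 against 5556 and 3156. Of 4 tested floor plate markers 1 passed, Ntn1, which was lower, while the median of the 4 was 0.51. The summed signal of the 5 floor plate markers on the array was 923 and 858 against 1200 and 1674. Ntn1 was the largest term of that sum on every array, reading 298 and 356 against 912 and 1225. The other tested floor plate markers, Shh, Foxa2 and Sulf1, had differences of 0.69, 0.69 and 0.34, opposite in sign to Ntn1. The part of either midline in the Rmst difference was not tested.

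The genes whose profile over the 4 arrays lay nearest to that of Rmst included several of the dI1 programme. Nearness is the Euclidean distance between mean-centred log2(signal + 32) values over 4 arrays of 2 populations, so it was largely set by the difference between populations and is a description. In order of distance the 8 nearest were Sstr3 (1.19), a somatostatin receptor, Barhl2 (1.28) and Barhl1 (1.30), Bar-class homeodomain factors of dI1, C1ql3 (1.38), a secreted C1q-like protein, Epha8 (1.40), an ephrin receptor, Lhx2 (1.44), a LIM-homeodomain factor of dI1, Stpg1 (1.46) and Rab15 (1.48), a small GTPase. Barhl2 read 1236 and 1392 in Atoh1-GFP cells against 147 and 98.4 in dNeurog1-GFP cells. Sstr3 read 305 and 237 against 93.4 and 17.4, so that it shared with Rmst the low value on dNeurog1-GFP replicate 2. None of the 8 was as low there as Rmst relative to its own mean.

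**Figure D2:**
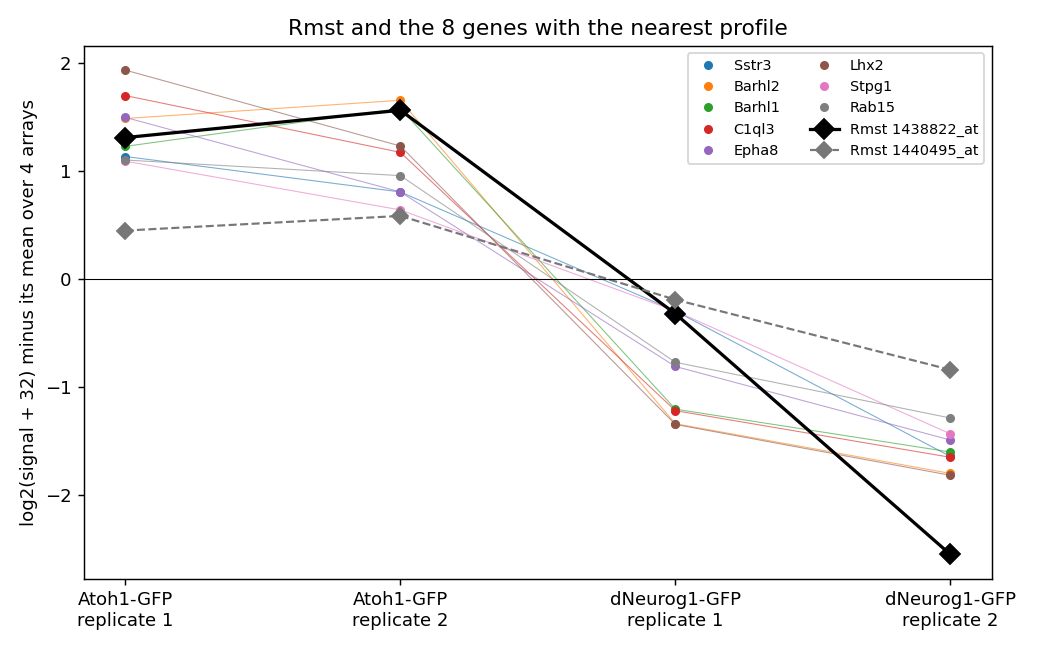
Log2(signal + 32) minus its mean over the 4 arrays for the Rmst probe sets 1438822_at (black) and 1440495_at (grey, dashed) and for the 8 nearest genes (coloured points), by array, with lines only to guide the eye. Every gene shown is above its mean on both Atoh1-GFP arrays and below it on both dNeurog1-GFP arrays, and the brighter Rmst probe set lies lowest on dNeurog1-GFP replicate 2.

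Genes known as partners, targets or neighbours of Rmst were also read. Of 7 tested genes on that list, 0 passed without the block and 1 with it, beside 9.51% of all genes. The gene was Sp8, which encodes a zinc finger factor that SOX2 is reported to activate. Sp8 was lower in the Atoh1-GFP population, at -1.66 log2 units (standard error 0.21, limma adjusted p = 0.0011 with the block and 0.55 without it), reading 117 and 289 against 528 and 819. Sox2 itself, outside the naming rule, read 10915 and 8368 against 12677 and 8442 (difference -0.11, adjusted p = 0.69 with the block). Hnrnpa2b1, which encodes an RNA-binding protein reported to bind RMST, differed by 0.12 (adjusted p = 0.69). Hnrnpk differed by 0.17 (adjusted p = 0.54). Rest had a difference of -0.43 (adjusted p = 0.18) and Nedd1, the centrosome gene next to Rmst, one of -0.46 (adjusted p = 0.15). Hey2, after Sp8 the largest on the list, had -0.69 (adjusted p = 0.27), reading 124 and 41.9 against 137 and 144. The median of the list was -0.43, against 0.01 over all genes. Neural progenitor markers, described further below and including Sox2, had a median of -0.86, and pan-neuronal markers one of 0.69. The part of that shift in the list median was not tested.

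Among the other 4 RNAs, 20 probe sets were tested. Without the block 0 of them passed in limma, where 1 had an unadjusted p under 0.05, and with the block 3 passed, all higher in Atoh1-GFP cells, beside the 4.02% of all probe sets called in that direction. Their median difference was 0.32, against 0.04 over all tested probe sets. Of the 20, 10 had the Atoh1-GFP array above its partner under both replicate numbers, as did 35.8% of all tested probe sets. In 3 of the 20 both Atoh1-GFP arrays lay above both dNeurog1-GFP arrays, beside 16.3% of all, and in 0 of them both lay below, beside 14.4% of all. Many of these probe sets read the same RNA, so they are not independent.

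**Figure D3:**
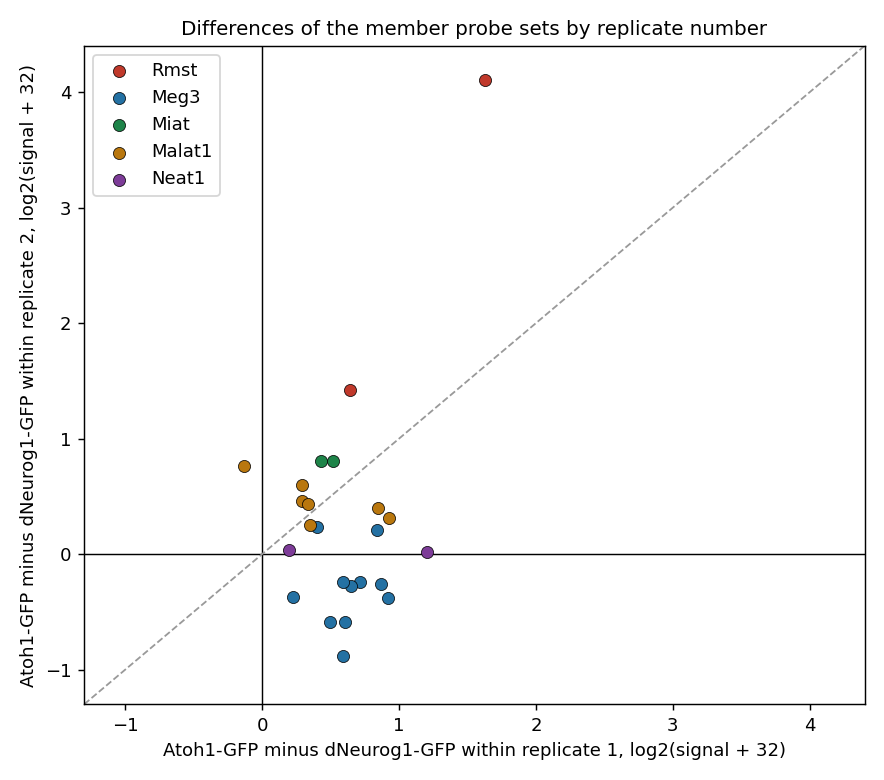
Difference between Atoh1-GFP and dNeurog1-GFP in log2(signal + 32) within replicate 1 (horizontal axis) and within replicate 2 (vertical axis), 1 point for each of the 24 probe sets, coloured by RNA, with a dashed line of equality. Both Miat points lie above 0 on both axes, while 9 of the 11 Meg3 points lie to the right of 0 and below it.

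The promoters of Miat and Malat1, whose brightest probe sets passed with the block, are shown as RefSeq gives them on GRCm38.p6, from 250 bases before to 50 after the start. They were searched for E-boxes, the letters that basic helix-loop-helix factors such as Atoh1 and Neurog1 bind as dimers. The letters were CAGCTG, which reads the same on both strands, and on both strands CATCTG. Neighbouring matches may share bases, and matches are in capitals.
Miat, chr5:112228899-112229198, minus strand: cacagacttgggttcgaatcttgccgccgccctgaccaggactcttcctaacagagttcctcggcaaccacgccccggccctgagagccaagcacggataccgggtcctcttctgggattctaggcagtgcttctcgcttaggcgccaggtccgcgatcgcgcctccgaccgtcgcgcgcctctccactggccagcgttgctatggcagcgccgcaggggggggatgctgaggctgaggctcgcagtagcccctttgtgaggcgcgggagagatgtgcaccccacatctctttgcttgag
Malat1, chr19:5802623-5802922, minus strand: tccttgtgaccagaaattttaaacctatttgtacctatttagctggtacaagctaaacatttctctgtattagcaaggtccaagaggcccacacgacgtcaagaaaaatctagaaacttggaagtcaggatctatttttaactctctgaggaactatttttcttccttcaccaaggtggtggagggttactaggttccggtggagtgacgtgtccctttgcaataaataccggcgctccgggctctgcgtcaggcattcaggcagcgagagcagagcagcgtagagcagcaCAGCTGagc
The Malat1 window held CAGCTG once, from base 42 after the start, and the Miat window held neither motif. Of 32851 promoter windows of 300 bases, 16.3% held CAGCTG, 17.2% held CATCTG on either strand and 30.6% held any of these. Both Meg3 windows in the table held none either. Of the 6 RNAs, Miat, Malat1 and Meg3 had windows there.

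Miat was higher in Atoh1-GFP cells on both of its probe sets, by the blocked fit. Its brighter probe set, 1455325_at, read 17761 and 19291 in Atoh1-GFP cells against 13208 and 11029 in dNeurog1-GFP cells. No dNeurog1-GFP array reached an Atoh1-GFP array. The difference was 0.43 within replicate 1 and 0.80 within replicate 2, with a mean of 0.62 (standard error 0.14, limma adjusted p = 0.026 with the block). Without the block the standard error was 0.17 and the adjusted p = 0.56, the unadjusted p being 0.012.

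The second Miat probe set, 1458903_at, read 756 and 1210 against 518 and 678, again without overlap. Its difference was 0.66 (0.52 within replicate 1 and 0.81 within replicate 2, standard error 0.16, adjusted p = 0.033 with the block and 0.96 without it). The 2 probe sets, of very different brightness, thus gave nearly the same difference. The call with the block was kept in 6 of 9 settings for the brighter probe set (adjusted p from 0.019 to 0.15) and in 6 of 8 for the dimmer one (0.024 to 0.11). Testing 1 probe set per gene ended the call of the brighter one, at adjusted p = 0.067.

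Genes of neurons in general moved the same way as Miat. Of 8 pan-neuronal markers 7 were higher in Atoh1-GFP cells by the blocked fit, beside 4.08% of all genes. Tubb3, a neuronal tubulin, was among the 7, with a difference of 1.01. The summed signal of the 8 was 55989 and 60945 in Atoh1-GFP cells against 28773 and 41363 in dNeurog1-GFP cells. Of 8 neural progenitor markers 4 were lower, beside 5.43% of all genes, with sums of 41447 and 32337 against 59115 and 41127. Their part in the Miat difference was not tested. Of 5 splicing factors that Miat RNA is reported to bind, 0 passed with or without the block in limma. With the block 9.51% of all genes passed, so 0 among so few genes is near that share. None of the 5 had an unadjusted p under 0.05 without the block. Celf3, a neuronal splicing regulator, had the largest difference of them, 0.40 (adjusted p = 0.18 with the block), and Sf1, which recognises the intron branch point, had 0.22 (adjusted p = 0.42).

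The mean difference of Malat1 was above 0 on all 7 probe sets, from 0.30 to 0.62. Only 1 of them passed with the block, and they differed in their shifts between the replicate numbers. The brightest, 1436202_at, read 3282 and 4375 in Atoh1-GFP cells against 1814 and 3308 in dNeurog1-GFP cells, so that the populations overlapped by a narrow margin. Within each replicate number the Atoh1-GFP array was the higher one, by 0.84 within replicate 1 and 0.40 within replicate 2. The mean of 0.62 passed with the block (standard error 0.15, limma adjusted p = 0.026) and not without it (0.34, adjusted p = 1.0). With the block it was called in 7 of 9 settings, with adjusted p from 0.018 to 0.12, and not when 1 probe set per gene was tested (0.061).

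The other 5 tested Malat1 probe sets had differences from 0.32 to 0.62 and none passed. The next brightest, 1429060_at, read 907 and 1287 against 735 and 930 (difference 0.37, adjusted p = 0.19 with the block). The dimmest tested one, 1452378_at, read 136 and 84.2 against 56.3 and 61.6 (difference 0.62, adjusted p = 0.28). The 7th probe set, 1427285_s_at, had a mean signal of 59.0, just under the minimum for testing, and read 79.0 and 58.1 against 55.3 and 43.7.

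The remaining 3 Malat1 probe sets differed far more between the replicate numbers than between the populations. On 1438403_s_at the replicate 1 arrays, Atoh1-GFP first, read 1088 and 1195, and those of replicate 2 read 65.8 and 25.5. On 1418189_s_at the values in this order were 670 and 541 against 91.5 and 49.6. On 1418188_a_at they were 441 and 343 against 42.9 and 23.6. Every replicate 2 array lay below every replicate 1 array on these 3 probe sets. On log2(signal + 32) the shift from replicate 1 to replicate 2 was -3.52, -2.51 and -2.66 in Atoh1-GFP cells in this order, and -4.41, -2.81 and -2.75 in dNeurog1-GFP cells. Between the populations the differences within replicate 1 and replicate 2 were -0.13 and 0.76 on 1438403_s_at, 0.29 and 0.60 on 1418189_s_at and 0.34 and 0.43 on 1418188_a_at. None passed with the block, at adjusted p of 0.55, 0.32 and 0.46. A fall of at least 2 log2 units from replicate 1 to replicate 2 in both populations, a bound chosen after the values were seen, was met by 79 of 27022 probe sets (0.292%).

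The brightest Malat1 probe sets went the other way. On 1436202_at replicate 2 was higher than replicate 1 by 0.41 log2 units in Atoh1-GFP and by 0.86 in dNeurog1-GFP cells, and on 1429060_at by 0.49 and 0.33. Suffixes in the names tell how specific a probe set was designed to be. An _s_at set has probes shared by several transcripts, and an _a_at set by variants of a gene. Which stretch of Malat1 each of them reads was not analysed here. On 1438403_s_at the replicate shift sets the unblocked difference once an array is left out, which was 2.52 without dNeurog1-GFP replicate 1 (limma adjusted p = 0.030) and -1.89 without dNeurog1-GFP replicate 2.

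**Figure D4:**
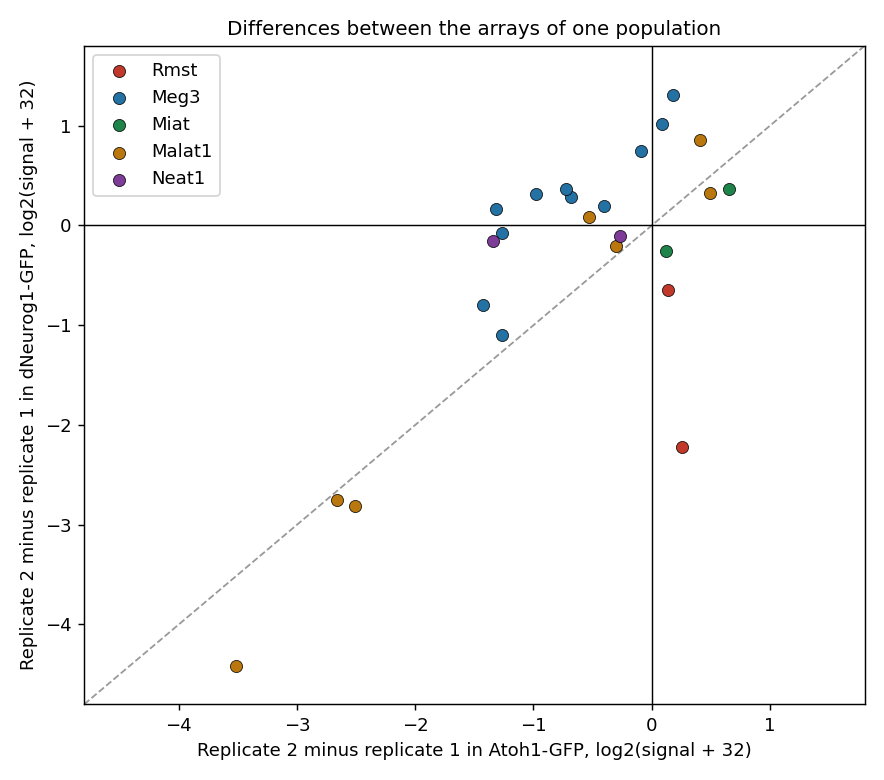
Replicate 2 minus replicate 1 in log2(signal + 32) within Atoh1-GFP (horizontal axis) and within dNeurog1-GFP cells (vertical axis), 1 point for each of the 24 probe sets, coloured by RNA, with a dashed line of equality. The 3 Malat1 points at the lower left fell by over 2 log2 units in both populations, and the brighter Rmst probe set fell in dNeurog1-GFP cells alone.

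The speckle proteins that share a compartment with Malat1 made no call. Of 11 tested genes 0 passed with or without the block in limma, beside 9.51% of all genes with it. A count of 0 among 11 is near that share. None of the 11 had an unadjusted p under 0.05 without the block, and the median was -0.01. Srsf2, a serine-arginine splicing factor, had the largest difference, -0.27 (adjusted p = 0.28 with the block), and Son, a core protein of the speckle, had 0.22 (adjusted p = 0.37).

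Meg3 was bright and went opposite ways in the replicate numbers. Its brightest probe set, 1439380_x_at, read 10769 and 5449 in Atoh1-GFP cells against 5693 and 7082 in dNeurog1-GFP cells. The Atoh1-GFP arrays enclosed both dNeurog1-GFP arrays. The difference was 0.92 within replicate 1 and -0.38 within replicate 2, with a mean of 0.27 (standard error 0.34, limma adjusted p = 1.0, and 0.24 and 0.58 with the block). An _x_at set has probes that may also bind other transcripts, so the other 10 matter here.

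The other Meg3 probe sets repeated the pattern. Of all 11, 11 were higher in Atoh1-GFP cells within replicate 1, beside 56.6% of all tested probe sets, and 2 within replicate 2, beside 50.4%. The 9 that turned round compare with 20.8% of all tested probe sets. Differences within replicate 1 ran from 0.22 to 0.92, and within replicate 2 from -0.88 to 0.23. On 1452183_a_at, the next brightest, signals were 2885 and 3271 against 1567 and 3925. On 1452905_at they were 3263 and 2025 against 1975 and 2406. The dNeurog1-GFP array was the higher one within replicate 2 on both. On 1436713_s_at signals were 1485 and 1577 against 934 and 1918. On 1426758_s_at they were 1490 and 1400 against 980 and 1666. These shared-probe sets had their highest value on dNeurog1-GFP replicate 2. On 1429256_at signals were 618 and 362 against 428 and 559, and on 1429257_at 413 and 147 against 263 and 298. On 1428765_at they were 281 and 204 against 236 and 274, and on 1436057_at 352 and 128 against 221 and 208. Each of these dimmer sets had its highest value on Atoh1-GFP replicate 1 and its lowest on Atoh1-GFP replicate 2.

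The 2 Meg3 probe sets that kept their direction were 1452906_at, with 623 and 240 against 463 and 199 (differences 0.40 and 0.23), and 1428764_at, with 482 and 159 against 256 and 133 (0.84 and 0.21). On both of them the replicate 2 arrays lay below the replicate 1 arrays in both populations, as the scaled medians of the arrays also did. None of the 11 passed, with adjusted p from 0.26 to 0.99 with the block, and in each the populations overlapped.

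Of the 4 tested genes of the imprinted domain around Meg3, 3 alternated in the same way. Rian and Mirg, non-coding RNAs of the same maternal transcript domain, differed by 1.36 and 0.83 within replicate 1 and by -0.20 and -0.17 within replicate 2. Dlk1, the paternally expressed Notch-like protein gene of the domain, differed by 1.05 and -0.67. It read 2286 and 1487 in Atoh1-GFP cells against 1088 and 2388. Wdr25, a flanking gene, differed by -0.04 and 0.21. Of these 4 genes 0 passed with or without the block in limma, beside 9.51% of all genes with it. None of the 4 had an unadjusted p under 0.05 without the block.

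Mesenchyme markers also alternated. The summed signal of 8 of them was 6440 and 4448 in Atoh1-GFP cells against 2953 and 7156 in dNeurog1-GFP cells, and their median difference was 1.08 within replicate 1 and -0.42 within replicate 2. None of the 8 passed with the block, beside 9.51% of all genes, and the lowest single signal among them was 106. The collagen gene Col3a1 read 2089 and 1722 against 822 and 3362. Their part in the Meg3 values was not tested.

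For H19 only its imprinted network could be read. Igf2, the growth factor gene that shares enhancers with H19, read 4208 and 3131 in Atoh1-GFP cells against 1941 and 4141 in dNeurog1-GFP cells. Its differences of 1.10 within replicate 1 and -0.40 within replicate 2 alternate as those of Meg3 do (mean 0.35, adjusted p = 0.51 with the block). Of 13 tested genes of the network 0 passed without the block and 1 with it, near the 9.51% of all genes. It was Plagl1, a zinc finger factor that activates imprinted genes, at a difference of -0.72 (standard error 0.14, adjusted p = 0.013, and 0.52 without the block). Plagl1 read 6371 and 7729 against 12187 and 10993. Mest, an imprinted gene expressed from the paternal chromosome, differed by -0.49 (adjusted p = 0.15), and the list median was -0.02.

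Neat1 was dim. Its tested probe set, 1442881_at, read 275 and 88.7 in Atoh1-GFP cells against 101 and 87.1 in dNeurog1-GFP cells. Atoh1-GFP replicate 1, the array with the highest scaled median, stood alone and the other 3 arrays lay together. As percentiles of all probe sets on each array the values were 63.9 and 52.3 against 47.2 and 52.2. The difference was 1.21 within replicate 1 and 0.020 within replicate 2, with a mean of 0.61 (standard error 0.54, limma adjusted p = 1.0, and 0.32 and 0.32 with the block). Without Atoh1-GFP replicate 1 it was -0.060. The other probe set, 1428083_at, read 14.0 and 6.25 against 8.19 and 5.34, at percentile 7.93 of mean signal, and was not tested.

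Endothelial markers were also highest on the Atoh1-GFP replicate 1 array. The summed signal of the 6 was 1387 and 533 in Atoh1-GFP cells against 502 and 414 in dNeurog1-GFP cells. The scaled medians of the arrays were 138 and 76.0 in Atoh1-GFP cells against 115 and 75.4 in dNeurog1-GFP cells. With the block 0 of 5 tested endothelial markers passed, beside 9.51% of all genes. Their part in the Neat1 value was not tested. The proteins that build paraspeckles on Neat1 made no call. Of 14 tested genes 0 passed with or without the block in limma, beside 9.51% of all genes with it. A count of 0 among 14 is near that share, and the median was 0.02. None had an unadjusted p under 0.05 without the block. Taf15, an RNA-binding protein, had the largest difference, 0.57 (adjusted p = 0.16 with the block), reading 552 and 934 against 255 and 854, and Rbm14, which paraspeckles need, had -0.37 (adjusted p = 0.18).

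Among further long non-coding RNAs on a list of well-studied ones, 27 were tested, and with the block 1 was higher in the Atoh1-GFP population (beside 4.08% of all genes) and 4 were lower (beside 5.43%). Without it 0 passed, beside 0.00785% of all genes. Evx1os, transcribed beside the homeodomain gene Evx1, read 550 and 296 against 119 and 180 (difference 1.29, standard error 0.30, adjusted p = 0.025 with the block). Sox2ot, whose gene overlaps Sox2, was lower at 273 and 271 against 778 and 504 (-1.12, standard error 0.21, adjusted p = 0.0089). The host genes of small nucleolar RNAs Snhg4 (-1.10), Snhg3 (-0.90) and Snhg1 (-0.55) were lower too, with adjusted p from 0.0017 to 0.025. Snhg4 read 562 and 586 against 1242 and 1301. Among broadly expressed ones named after their values were seen, Xist, which coats the inactive X chromosome of females, read 9055 and 8725 against 10964 and 6990 (difference 0.02, adjusted p = 0.96), and Tug1 and Norad differed by -0.03 and 0.09. Over all 7 lists named here, 7 of 76 tested genes passed with the block (9.21%), beside 9.51% of all genes, and 0 without it, where 7 had an unadjusted p under 0.05.

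The class as a whole gave few calls. Of the 416 tested lncRNA genes other than Rmst, 8 were higher and 15 lower in the Atoh1-GFP population by the blocked fit, 5.53% together, beside 9.71% of 12186 protein-coding genes, and the difference between these shares was not tested. The lncRNA genes were dimmer, with a median signal of 129 against 664. Miat and Malat1 are among the 8. Named after their values were seen, Srrm4os (1.87, reading 1160 and 455 against 297 and 101) followed Rmst at the upper end, and Lhx1os (-2.12, reading 228 and 107 against 610 and 1038) stood at the lower end. Lhx1, the dI2 gene beside which Lhx1os is transcribed, differed by -3.06. Crnde, an RNA known from dividing cells, was lower by a difference of -1.51. At least a 2-fold difference on the log2 scale within both replicate numbers was met in the Atoh1-GFP direction by 3 of these 416 genes, Srrm4os, 4930578M01Rik and 6330415B21Rik, beside 1.11% of all genes. In the other direction 7 met it, beside 1.15% of all genes.

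**Figure D5:**
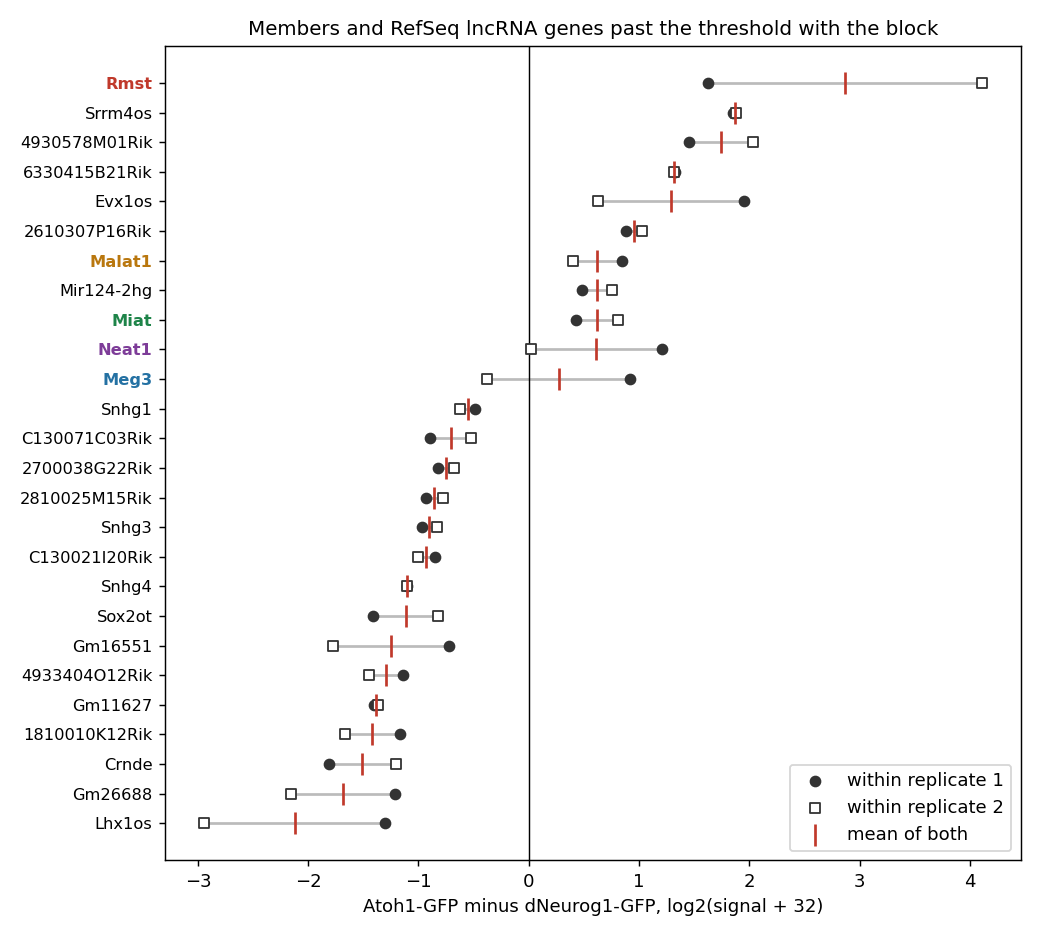
Difference between Atoh1-GFP and dNeurog1-GFP in log2(signal + 32) for Rmst, Miat, Malat1, Neat1 and Meg3 (bold, coloured) and for the other lncRNA genes called with the block, with a circle for replicate 1, a square for replicate 2 and a red bar for their mean. Rmst, chosen for its large difference, has the highest mean, 2.87, and the widest gap between the replicate numbers. Lhx1os has the lowest mean, -2.12.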

How the data were processed

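The authors deposited 1 table of MAS5 signal intensities on a linear scale, with 1 column per array. The submitters' processing notes name MAS5 alone, with no version. Each array was scaled to a 2% trimmed mean of 500, and 64 control probe sets were left out. Differences were taken on log2(signal + 32). Probe sets at or above the 40th percentile of mean signal were tested with limma 3.58.1 in R 4.3.3 (lmFit, eBayes with an intensity trend) and Benjamini-Hochberg adjustment. The fit without a block had 2 residual degrees of freedom and a prior of 3.99, and the blocked fit had 1 and 9.61, so p-values rest largely on the spread shared across probe sets. The number of arrays limits the precision. Genes were named as all members, up to 6 genes of each list by size of difference with any called ones, and the 8 nearest to Rmst. The members and lists were chosen with earlier results of these data known. The RefSeq lncRNA class and the blocked alternatives of scaling, pseudocount and filter were added after seeing the data. Scaling, pseudocount, filter, block and left-out arrays were varied. The deposited values carry no detection calls.

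Labels do not say what a shared replicate number means. Deviations of same-numbered arrays from their group means correlated at 0.72 across probe sets, a description of 2 pairs of arrays.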

Additional observations from a re-analysis of the deposited data

How the results depend on the processing

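Over all probe sets the count of calls depended most on the replicate block. It was 1 without and 2156 with the block, 32 on signals as deposited, 2 without a filter, 0 with a filter at the 60th percentile, 28 with 1 probe set per gene, and 82 to 464 when arrays were left out. Together with the block, settings chosen after seeing the data gave 1764 (quantile normalization), 2399 (as deposited), 2625 (75th percentile), 2018 and 1855 (pseudocounts 16 and 64), 690 (no filter), 1926 (60th percentile) and 829 (1 probe set per gene). Genes of the related lists passed 7 times with the block, then 6, 7, 8, 7, 7, 3, 7 and 6 times in the same order, and 0 to 1 times with an array left out. The Miat difference passed with the block (0.62) and with it under quantile normalization (0.51), as deposited (0.62), at pseudocounts 16 (0.62) and 64 (0.61) and at the 60th percentile (0.62). That of Malat1 did so too (0.62, 0.65, 0.62, 0.63, 0.61 and 0.62) and at the 75th percentile (0.60). On its brighter probe set the Rmst difference was 3.17 and 2.47 at pseudocounts 16 and 64. It was 2.70 at the 75th percentile, 2.75 with quantile normalization and 2.81 as deposited. No fit with the block was possible with an array left out, since no residual degrees of freedom remain. With arrays left out and no block, differences ranged from 1.75 to 3.98 for Rmst, -0.22 to 0.76 for Meg3, 0.49 to 0.75 for Miat, 0.19 to 1.05 for Malat1 and -0.060 to 1.29 for Neat1, the array left alone in its population being assumed to vary like the other population. Neat1 had no value at the 60th percentile filter, and no H19 alternative was run because it has no probe set of its own. The signs of single probe sets turned for Malat1 1418188_a_at (-0.99 to 1.76), 1418189_s_at (-0.96 to 1.85) and 1438403_s_at (-1.89 to 2.52). They also turned for Meg3 1426758_s_at (-0.20 to 0.54), 1428764_at (-0.19 to 1.24), 1428765_at (-0.28 to 0.13), 1429256_at (-0.40 to 0.32), 1429257_at (-0.80 to 0.51), 1436057_at (-0.62 to 0.64), 1436713_s_at (-0.32 to 0.69), 1452183_a_at (-0.35 to 0.96), 1452905_at (-0.11 to 0.58) and 1452906_at (-0.31 to 0.95). For 1436057_at, at 0.0079, the sign also turned as deposited (-0.020), at the 75th percentile (-0.0090), with quantile normalization (-0.0064) and at pseudocount 16 (-0.0019), each with and without the block. The cause was not tested. Dim signals, such as Rmst on dNeurog1-GFP replicate 2, limit the size of a fold.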
